A study of Mus musculus with 11 samples.

Results

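The S100 genes encode small calcium-binding proteins, and 10 of them (S100a1, S100a4, S100a6, S100a8, S100a9, S100a10, S100a11, S100a13, S100a14 and S100a16) were followed across 27 RNA-seq libraries of mouse oviduct, ovarian surface epithelium (OSE), organoids and tumors. They are 10 of the 17 S100 genes and of 18305 genes in the table. The set was chosen from measured values of these libraries: S100a4 was high in mesenchymal-type (mes) tumor-derived organoids and S100a14 was higher in mutant clones than in the organoids they came from. Those contrasts are therefore given below as values without a test. The wildtype groups are bulk oviduct tissue (3 libraries), bulk OSE tissue (3), oviductal organoids (3) and OSE organoids (2), all from C57BL/6 young adult females, with several mice pooled for each organoid line and both kinds of organoids grown with WNT and estrogen. A further group is oviductal organoids (3) from mice that carry Cas9 and EGFP in the ROSA26 locus and express them ubiquitously. TBP clones (3) are such Cas9-GFP oviductal organoids transfected with sgRNAs against Trp53, Brca1 and a further tumor suppressor gene, selected with Nutlin-3a and clonally expanded. The paper made 2 independent clones per mutation combination, so whether these 3 libraries are 3 separate clones is unknown. TBP tumors (6) grew from TBP clones under the skin of NSG mice, hosts without T, B and NK cells that keep myeloid cells and their own stroma. The 4 tumor-derived organoid lines, kept in Nutlin-3a, are T1-mes and T3-mes, which contain fibroblast-like cells beside cystic organoids, and T2-epi and T4-epi, which look epithelial throughout; T1-mes and T2-epi came from adjacent tumors of 1 clone. RNA came by Trizol from tissues and tumors and with an RNeasy kit from organoids, so that extraction cannot be told apart from culture in any comparison of the former with the latter.

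S100 proteins have a pair of EF-hand motifs, most act as dimers, and calcium binding exposes a surface that grips a partner protein. S100A10 does not bind calcium and joins annexin A2 in a complex at the membrane. S100A4, also called fibroblast-specific protein 1 or metastasin, binds non-muscle myosin and is a common marker of mesenchymal cells, while S100A8 and S100A9 form calprotectin, an abundant cytosolic complex of neutrophils and monocytes that signals through TLR4 and AGER when released. S100A6 (calcyclin), S100A11 (calgizzarin), S100A14 and S100A16 are found in many epithelia, S100A1 is best known from muscle, and S100A13 takes part in the release of FGF1.

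Values are CPM, the gene's share of a library's counts on a common scale after TMM normalization; 3′ counts do not compare levels between genes. Total counts were 600579 to 4531767 in 26 libraries and 82239 in TBP clone 1, where 3 counts, the number a count of 0 can hide, equal 34.1 CPM against 0.670 to 5.21 CPM elsewhere. Trp53 had 34.8 to 61.1 CPM in Cas9-GFP organoids and 0, 0.535 and 4.91 CPM in TBP clones 1, 2 and 3. It had 4.27 to 8.96 CPM in the tumor-derived organoids and 18.2 to 56.7 CPM in the TBP tumors. Brca1 was too low to check the labels, with 0 to 4 counts in Cas9-GFP organoids and 0, 2 and 24 counts in the clones. OSE organoids 2 differed from OSE organoids 1: a list of 4 oviduct secretory markers summed to 3457 CPM against 61.9 CPM, and 8 OSE and mesothelium markers to 665 against 2481 CPM. The paper left a further OSE organoid line out because of evident contamination. Cas9-GFP organoids had a secretory sum of 232 to 253 CPM against 15005 to 22890 CPM in C57BL/6 oviductal organoids, a sum that is nearly all Ovgp1. Pax8, also on that list, had 141 to 181 CPM in the former and 167 to 189 CPM in the latter. OSE tissue also held granulosa markers (5 genes, 3638 to 4521 CPM) and steroidogenic cell markers (6245 to 7623 CPM), each of which summed to at most 13.3 CPM in OSE organoids. The paper describes the tissue samples, the wildtype organoid lines and the sequenced tumors as independent. For the Cas9-GFP organoids and the clones this is unknown, and the labels do not say which animals or extractions gave a library. A p-value therefore measures the spread between these libraries. The 10 genes took 0.137% to 0.199% of counts in OSE tissue, 0.371% to 1.34% in every other library.

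All 10 genes lie on chromosome 3 (GRCm38, GENCODE vM21). The first cluster holds 8 of them within 184.7 kb, from S100a1 to S100a9 (chr3:90511034-90695721), and S100a11 and S100a10 form a second cluster at chr3:93520488-93564643. S100a1, on the minus strand, and S100a13, on the plus strand, start only 0.043 kb apart and point away from each other. S100a4 and S100a6 are separated by S100a5, and S100a8 and S100a9 are neighbours on opposite strands, 22.6 kb apart. Neighbours differed in how closely their levels followed each other. Across the 26 libraries with at least 500000 counts, Pearson's r of log2 CPM was 0.979 for S100a8 and S100a9, 0.140 for S100a1 and S100a13, 0.334 for S100a4 and S100a6 and 0.309 for S100a10 and S100a11. These are descriptions over libraries that share groups.

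**Figure D1:**
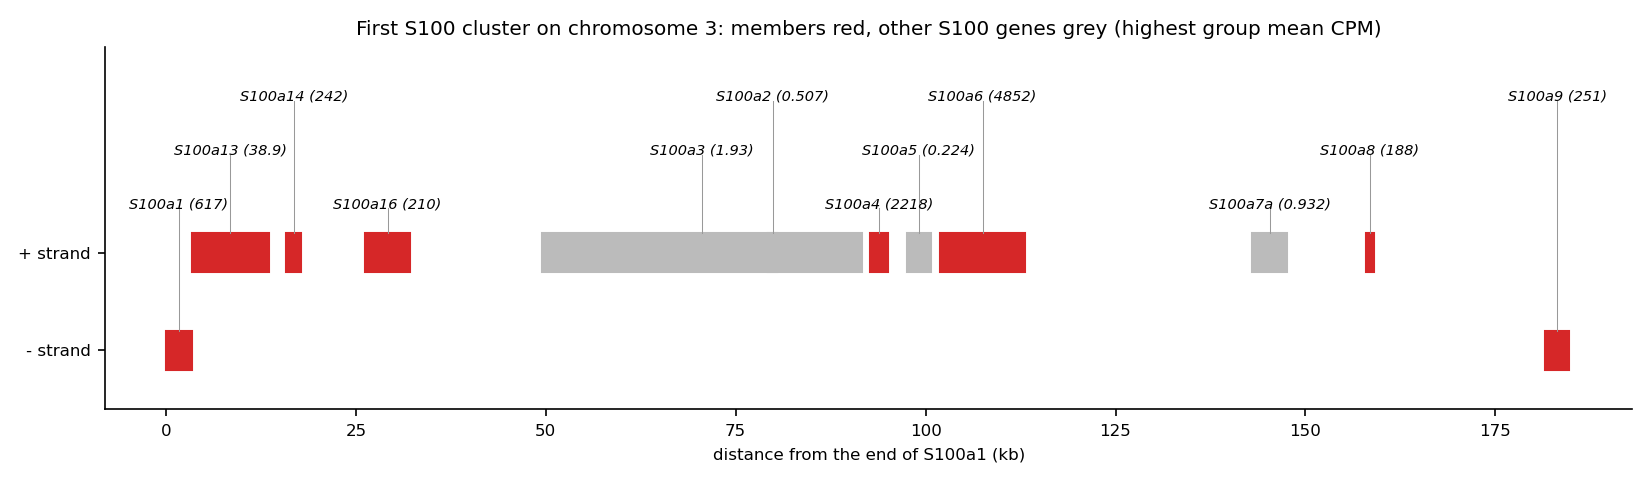
Map of the first S100 cluster, with the distance from the end of S100a1 in kb on the x axis and the strand on the y axis. Members are red, the other S100 genes grey, and the number after each symbol is its highest group mean in CPM: the 4 grey genes S100a2, S100a3, S100a5 and S100a7a stay below 2 CPM among neighbours that reach 38.9 to 4852 CPM.

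The sequences before the start sites are shown for S100a4, which marked the mes lines, for the calprotectin pair S100a8 and S100a9, and for S100a11, which was high in nearly all groups, together with the stretch between S100a1 and S100a13. They come from RefSeq (GRCm38.p6), which held a window for 8 of the 10 genes, are written 5′ to 3′ on the gene's own strand, and stop before the first base that RefSeq or GENCODE transcribes. Capitals mark TATAAA, known as the TATA box, the AP-1 motif TGANTCA, whose reverse complement has the same form, and GGGCGG (a GC box), each searched on both strands. S100a4 (chr3:90603520-90603769, plus strand) has TATAAA 31 bases before its RefSeq start. S100a8 (chr3:90668821-90668977, plus strand) has it 30 bases before the RefSeq start, in a part that GENCODE transcribes and that is not printed. S100a9 (chr3:90695722-90695971, minus strand) has GGGCGG 223 bases before its start. S100a11 (chr3:93520246-93520487, plus strand) has TGANTCA at 136 and 38 bases and GGGCGG at 64, 52 and 24 bases before its start.
S100a4: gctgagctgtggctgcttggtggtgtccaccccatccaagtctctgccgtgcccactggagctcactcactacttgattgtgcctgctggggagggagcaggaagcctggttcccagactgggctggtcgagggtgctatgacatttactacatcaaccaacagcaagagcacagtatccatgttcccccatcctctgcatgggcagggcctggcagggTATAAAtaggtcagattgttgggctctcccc
S100a8: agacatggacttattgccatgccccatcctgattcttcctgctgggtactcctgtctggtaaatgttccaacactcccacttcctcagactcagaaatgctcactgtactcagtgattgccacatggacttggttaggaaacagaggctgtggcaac
S100a9: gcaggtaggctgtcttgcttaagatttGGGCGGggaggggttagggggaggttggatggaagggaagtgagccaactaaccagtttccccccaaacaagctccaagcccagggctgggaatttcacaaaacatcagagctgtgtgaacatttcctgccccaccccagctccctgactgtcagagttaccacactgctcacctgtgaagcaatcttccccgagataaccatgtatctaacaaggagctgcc
S100a11: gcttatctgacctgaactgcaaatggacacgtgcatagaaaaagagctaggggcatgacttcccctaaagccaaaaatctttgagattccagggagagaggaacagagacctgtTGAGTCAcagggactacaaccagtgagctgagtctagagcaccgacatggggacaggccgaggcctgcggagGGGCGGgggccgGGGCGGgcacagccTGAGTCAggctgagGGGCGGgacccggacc
Among 32851 windows of 250 bases before a RefSeq start, 12.4% held TATAAA, 6.75% TGANTCA and 32.7% GGGCGG. Of the 9 windows of S100 members (S100a16 has a pair of start sites), 2 held TATAAA, 2 TGANTCA and 3 GGGCGG. The 42 bases between the transcribed ends of S100a1 and S100a13 (chr3:90514393-90514434, plus strand) hold none of these motifs, and capitals mark their single CpG.
S100a1-S100a13: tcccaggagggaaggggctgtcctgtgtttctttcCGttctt

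Some S100 genes were present in every library and others reached appreciable levels in a few groups, as the plot of all libraries shows. S100a11 ranged from 525 to 7352 CPM and S100a6 from 164 to 7682 CPM, each lowest in OSE tissue and highest in an OSE organoid library. S100a1 (124 to 670 CPM), S100a10 (225 to 1079 CPM) and S100a13 (7.08 to 52.3 CPM) moved within narrow bounds: their highest and lowest group means differed 4.42-fold, 2.87-fold and 3.23-fold. The group means of S100a16 differed 13.3-fold. Those of S100a14 ran from 1.15 CPM in OSE tissue to 242 CPM in OSE organoids and those of S100a4 from 1.74 CPM in Cas9-GFP organoids to 2218 CPM in tumors, with the lowest groups at about the counting floor. S100a8 and S100a9 had at most 7 counts outside the tumors, apart from 8 counts of S100a9 in T4-epi.

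**Figure D2:**
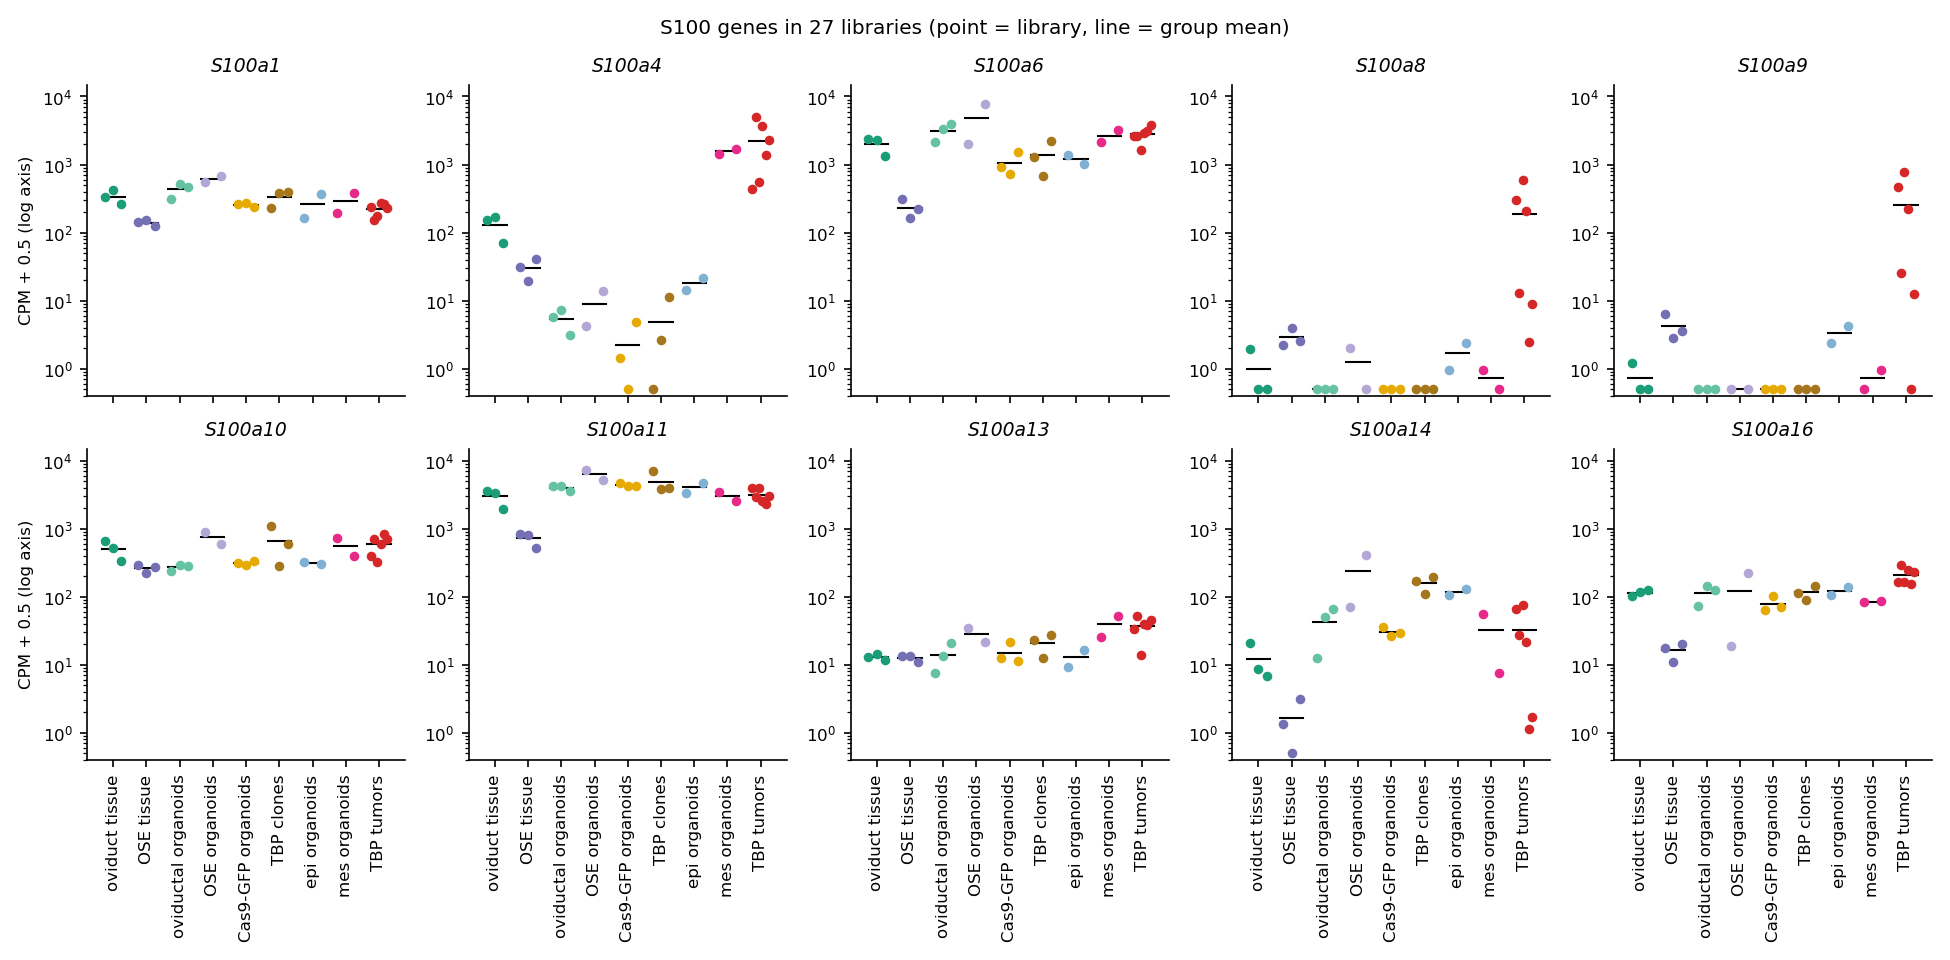
Level of each of the 10 S100 genes in 27 libraries, in CPM plus 0.5 on a log axis, by group. Each point is a library and each line a group mean: S100a4 is at 433 CPM or more in both mes lines and the 6 tumors and at most 169 CPM elsewhere, and S100a8 and S100a9 exceed 10 CPM in tumors only.

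Oviduct tissue was compared with OSE tissue to ask how the parental tissues differ. Of the 10 genes, 7 passed the filter on low counts, and 6 of them were higher in oviduct tissue (edgeR's quasi-likelihood test, Benjamini-Hochberg adjusted over all genes), 0 were lower and 1 was not called. Of all 8787 genes tested, 51.2% were called in either direction. The median log2 fold change of the 7 genes was 2.03, against 0.0017 over all genes. Fewer cells of a type and less RNA per cell cannot be told apart in such bulk samples.

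S100a6, the calcyclin gene, had 2359, 2314 and 1320 CPM in oviduct tissue and 307, 164 and 220 CPM in OSE tissue. The lowest oviduct library was above the highest OSE library, and the log2 fold change was 3.10 ± 0.26 (approximate SE, 8.58-fold, adjusted p = 1.62e-07). S100a16 had 101, 115 and 124 CPM in oviduct tissue and 17.0, 10.6 and 19.9 CPM in OSE tissue (log2 fold change 2.74 ± 0.22, adjusted p = 1.15e-07). S100a11, which binds annexin A1, followed with 3629, 3350 and 1946 CPM against 825, 806 and 525 CPM (2.04 ± 0.25, adjusted p = 6.98e-06). S100a4 had 152, 169 and 68.9 CPM against 30.7, 18.8 and 40.8 CPM (2.03 ± 0.31, adjusted p = 5.37e-05). The groups did not overlap for any of these 4 genes, and the share of all genes without overlap was not counted. S100a1 (1.27 ± 0.19, adjusted p = 4.01e-05) and S100a10 (0.92 ± 0.21, adjusted p = 0.00216) were higher by less. S100a13 had 11.3 to 13.7 CPM in oviduct and 10.4 to 12.9 CPM in OSE tissue (0.067 ± 0.31, adjusted p = 0.872). S100a14 did not pass the filter, with 28, 6 and 5 counts in oviduct tissue and 1, 0 and 5 in OSE tissue. Markers of several cell types moved with these genes, and their part in the result was not tested. Epithelium markers summed to 1931 to 2436 CPM in oviduct tissue and 448 to 552 CPM in OSE tissue, with 9 of 10 higher. Smooth muscle markers (5716 to 7040 against 519 to 749 CPM, 6 of 6 higher), fibroblast markers (4196 to 7362 against 1719 to 3269 CPM, 6 of 8 higher) and monocyte and macrophage markers (377 to 510 against 90.4 to 198 CPM, 7 of 7 higher) went the same way. All 5 granulosa and all 5 steroidogenic markers were lower. Each of the 6 calls held with any library left out, and S100a10 lost its call in a fit of all 27 libraries (adjusted p = 0.0841).

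Organoids of the same origins were compared next. Between oviductal and OSE organoids 0 of 7 tested members were called, where 0.0864% of 9257 genes tested were called (8 genes), and 1060 genes had an unadjusted p under 0.05. DESeq2 called 264 genes and 1 member, S100a10 (log2 fold change -1.47, adjusted p = 0.00204). All 7 fitted values were negative, with a median of -0.65 against 0.011 over all genes. S100a10 had 238, 295 and 281 CPM in oviductal organoids and 907 and 600 CPM in OSE organoids (-1.46 ± 0.28, adjusted p = 0.164). S100a11 had 4215, 4168 and 3577 CPM against 7352 and 5251 CPM (-0.65 ± 0.28, adjusted p = 0.457). In both genes the OSE organoid libraries were above all 3 oviductal ones. The same held for S100a1 (563 and 670 CPM against 311 to 520 CPM) and S100a13 (34.0 and 21.0 against 7.08 to 20.6 CPM). It also held for S100a14 (71.0 and 413 CPM against 12.3 to 65.7 CPM), while S100a6 and S100a16 overlapped. The share of all genes without overlap was not counted, so these separations are no result about the members.

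The OSE organoid libraries differed from each other in some members. The level of S100a16 was 18.1 CPM in the first OSE organoid library and 221 CPM in the second, below and above the 72.2 to 141 CPM of oviductal organoids. S100a6 had 2021 and 7682 CPM, and S100a14 had 71.0 and 413 CPM. With OSE organoids 2 left out, S100a16 was higher in oviductal organoids (2.64, adjusted p = 0.00511), S100a10 (-1.73, adjusted p = 7.90e-04) and S100a11 (-0.87, adjusted p = 0.0167) were lower, and 1448 genes were called. With OSE organoids 1 left out, S100a6 (-1.29, adjusted p = 0.0368), S100a10 (-1.14, adjusted p = 0.0380) and S100a14 (-3.30, adjusted p = 0.00820) were lower, and 251 genes were called. In such fits the lone OSE library is assumed to vary like the other group.

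The difference between the tissue contrast and the organoid contrast was tested as an interaction. Of 8 members tested, 6 were called, all with an oviduct-over-OSE difference that was lower in organoids than in tissues, where 11.7% of 11458 genes were called. The median of the 8 was -2.71 against 0.037 over all genes. S100a14 did not pass the filter on low counts between tissues, nor S100a4 between organoids, so their interactions rest in part on low counts. Their calls are no support for a difference of the set. The count and the median include both genes and are given as a description. The interaction was -3.66 ± 0.65 for S100a6 (adjusted p = 0.00427), -2.61 ± 0.40 for S100a11 (adjusted p = 0.00158), -2.30 ± 0.37 for S100a10 (adjusted p = 0.00241) and -1.69 ± 0.36 for S100a1 (adjusted p = 0.00985). These 4 were called with any library left out. S100a14 (-5.46 ± 1.36, adjusted p = 0.0225) lost its call without oviduct tissue 1 (adjusted p = 0.114), OSE tissue 1 (0.0617) or OSE tissue 2 (0.0526). S100a4 (-2.87 ± 0.75, adjusted p = 0.0281), which had at most 26 counts in a wildtype organoid library, lost its call in 7 of 11 such fits, and without OSE organoids 2 its value was -1.61 (adjusted p = 0.330). S100a16 (-2.81 ± 0.92, adjusted p = 0.0676) was not called. Epithelium markers had interactions of the same sign, with 8 of 10 called lower and a median of -3.11, as had 2 of 3 tested secretory markers (median -5.68); their part in the result was not tested.

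**Figure D3:**
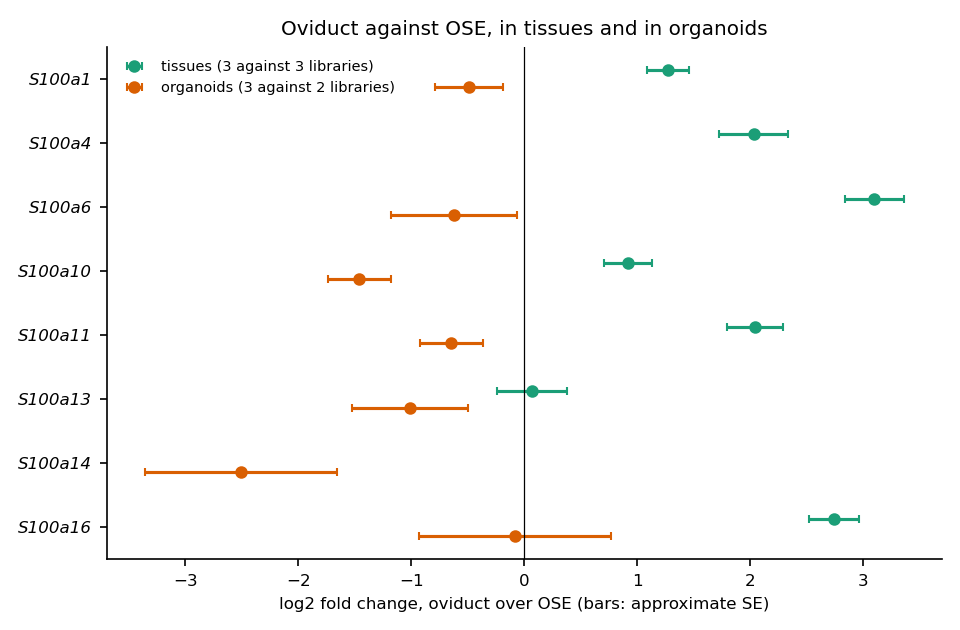
Log2 fold change of oviduct over OSE on the x axis for S100 genes on the y axis, in tissues (green) and organoids (orange), with approximate SE as bars. The green points of 6 genes lie between 0.92 and 3.10 and that of S100a13 at 0.067, while all 7 orange points lie between -2.51 and -0.083; S100a4 has no orange and S100a14 no green point because of the filter on low counts.

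OSE organoids were compared with OSE tissue to see what culture of this epithelium retains. Of 8 members tested, 7 were higher in organoids, 0 were lower and 1 was not called, with 33.1% of 10232 genes called. The median of the 8 was 2.54 against -0.065 over all genes. S100a14 went from 0.852, 0 and 2.61 CPM in tissue to 71.0 and 413 CPM in organoids (log2 fold change 7.33 ± 0.99, adjusted p = 0.00257). With at most 5 counts in a tissue library, it passed the filter on low counts through the organoids alone. Its call is therefore no support for a difference of the set. S100a6 rose by 4.42 ± 0.60 (adjusted p = 0.00264), S100a11 by 3.15 ± 0.33 (adjusted p = 0.00114), S100a1 by 2.17 ± 0.24 (adjusted p = 0.00126) and S100a10 by 1.54 ± 0.27 (adjusted p = 0.00617). Their organoid libraries lay above all 3 tissue libraries, and these 5 calls held with any library left out. The share of all genes without overlap was not counted. S100a16 was called (2.92 ± 0.89, adjusted p = 0.0435), but OSE organoids 1, at 18.1 CPM, lay within the tissue range, and without OSE organoids 2 the value was 0.14 (adjusted p = 0.798). Its call was also lost without OSE tissue 1, 2 or 3 (adjusted p = 0.153, 0.160 and 0.140). S100a13 (1.21 ± 0.36, adjusted p = 0.0423) lost its call without OSE tissue 1, 2 or 3 (adjusted p = 0.120, 0.123 and 0.168) or OSE organoids 1 (0.0551). S100a4 had 30.7, 18.8 and 40.8 CPM in tissue and 3.77 and 13.3 CPM in organoids, a difference of -1.75 ± 0.58 (adjusted p = 0.0573). Epithelium markers rose with the S100 genes, from a sum of 448 to 552 CPM to 8929 and 10889 CPM, with 9 of 9 tested higher (median 4.95). Fibroblast markers fell from 1719 to 3269 CPM to 0.755 and 39.4 CPM, with 9 of 9 tested lower. Their part in the result was not tested.

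Oviductal organoids against oviduct tissue gave fewer calls among S100 genes: of 8 tested, 1 was higher in organoids, 2 were lower and 5 were not called, with 42.9% of 9477 genes called. The median of the 8 was 0.24 against -0.019 over all genes. S100a4 fell from 152, 169 and 68.9 CPM to 5.19, 6.86 and 2.66 CPM (-4.72 ± 0.40, 26.3-fold, adjusted p = 2.96e-06), and fibroblast markers fell from a sum of 4196 to 7362 CPM to at most 5.14 CPM, with 7 of the 10 at 0. That call held with any library left out. With 11, 8 and 4 counts in the organoids, S100a4 passed the filter on low counts through the oviduct tissue alone. Its call is therefore no support for a difference of the set. S100a10 fell by 0.87 ± 0.22 on the log2 scale (adjusted p = 0.00765), a call lost without oviduct tissue 1 (adjusted p = 0.0557). S100a14 rose by 1.73 ± 0.59 (adjusted p = 0.0332), from 20.5, 8.22 and 6.27 CPM to 12.3, 49.7 and 65.7 CPM. Its groups overlapped, and the call was lost without oviduct tissue 2 or 3 or oviductal organoids 2 or 3 (adjusted p = 0.0954, 0.102, 0.0736 and 0.145). S100a16 differed by 0.0027 ± 0.25 (adjusted p = 0.994). Without oviductal organoids 1 the calls were 5, with S100a1 (0.59, adjusted p = 0.0210) and S100a6 (0.89, adjusted p = 0.00454) added.

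The Cas9-GFP organoids are the parental line of the TBP clones and were compared with C57BL/6 oviductal organoids. Of 6 members tested, 0 were higher, 2 were lower and 4 were not called, with 26.3% of 8323 genes called. S100a14 was not tested, since its Cas9-GFP values were used to choose it. The median of the 7 fitted members was -0.43 against 0.0018 over all genes. It is the value of S100a14 itself, so it is no support for a difference of the set. S100a6 had 913, 726 and 1520 CPM against 2156, 3296 and 3915 CPM, with no overlap (-1.55 ± 0.28, 2.93-fold lower, adjusted p = 0.00180). S100a1 had 262, 276 and 236 CPM against 311, 520 and 473 CPM (-0.73 ± 0.21, adjusted p = 0.0219). The S100a6 call held with any library left out. The S100a1 call was lost without oviductal organoids 2 or 3 (adjusted p = 0.0769 and 0.0685) or Cas9-GFP organoids 1 or 3 (0.0738 and 0.0768). Without oviductal organoids 1 the calls were 3, with S100a16 (-0.78, adjusted p = 0.0232) added. S100a11 had 4205 to 4626 CPM against 3577 to 4215 CPM (0.15 ± 0.16, adjusted p = 0.511). The epithelium sum was also lower, 4720 to 5265 CPM against 6364 to 8526 CPM, with 5 of 10 markers called lower and 1 higher, and its part in the result was not tested.

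S100a14, one of the genes that chose the set, had 35.8, 26.1 and 28.9 CPM in Cas9-GFP organoids and 170, 110 and 197 CPM in TBP clones 1, 2 and 3. The groups did not overlap, and the fitted log2 fold change was 2.39 ± 0.36. TBP clone 1 contributed 15 counts. The other members gave smaller values: all 6 others that passed the filter were positive, from 0.22 ± 0.40 for S100a11 to 1.08 ± 0.46 for S100a10, and the groups overlapped in each. S100a10 had 292 to 331 CPM in Cas9-GFP organoids and 1079, 279 and 604 CPM in the clones, the highest in the shallow clone 1. S100a4 had 0, 4 and 48 counts in clones 1, 2 and 3, or 0, 2.14 and 10.7 CPM. Epithelium markers summed to 4720 to 5265 CPM in Cas9-GFP organoids and to 3066, 5587 and 5574 CPM in the clones.

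S100a4, the other gene behind the choice, had 1414 CPM in the T1-mes line and 1697 CPM in the T3-mes line but 13.9 CPM in the T2-epi line and 21.4 CPM in the T4-epi line. The fitted log2 fold change of mes over epi was 6.47 ± 0.47. Fibroblast markers summed to 3079 and 7338 CPM in the mes lines and to 30.6 and 99.6 CPM in the epi lines. Oviduct tissue had a like sum (4196 to 7362 CPM) with 68.9 to 169 CPM of S100a4, and OSE tissue 1719 to 3269 CPM with 18.8 to 40.8 CPM. In the mes lines Col1a1, Col1a2, Col3a1 and Dcn were the highest of these markers. Thy1, Postn and Fap had at most 5.66 CPM there, and Lum, Pdgfra and Pdgfrb lay mostly between. The part of such cells in the S100a4 level was not tested. S100a6 and S100a13 were also higher in both mes lines than in both epi lines. S100a6 stood at 2142 and 3186 CPM against 1383 and 1019 CPM (1.16 ± 0.40), and S100a13 at 25.6 and 52.3 CPM against 8.80 and 16.1 CPM (1.65 ± 0.57). S100a14 went the other way, from 106 CPM (T2-epi) and 131 CPM (T4-epi) down to 56.1 CPM (T1-mes) and 7.07 CPM (T3-mes), a fitted difference (-1.92 ± 0.85). The T3-mes library was also the lowest in epithelium markers, with a sum of 390 CPM against 3856 CPM in T1-mes and 5225 and 5841 CPM in the epi lines. S100a10 was also higher without overlap (721 and 395 CPM against 324 and 300 CPM) and S100a16 lower without overlap (83.4 and 85.8 CPM against 105 and 137 CPM). How many of all genes separate the mes from the epi lines was not counted, so these separations are no result about the members. S100a11, at 3443 and 2551 CPM against 3356 and 4764 CPM, overlapped between the kinds of line.

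In tumors, S100a4, S100a8 and S100a9 were the members that stood highest above the TBP clones. TBP tumors were compared with TBP clones to see what changes when clones grow in a host: of 9 members tested, 3 were higher, 0 were lower and 6 were not called, with 31.8% of 10473 genes called. The median of the 10 fitted members, with S100a14 among them, was 0.83 against 0.16 over all genes and is given as a description. S100a4 had 433, 5041, 559, 3644, 1373 and 2261 CPM in Tumors 1 to 6, against 10.7 CPM in TBP clone 3, 2.14 CPM in clone 2 and 0 counts in the shallow clone 1 (8.39 ± 1.22, adjusted p = 6.65e-04, called with any library left out). All 6 tumors were above the clones, and Tumors 1 and 3 were the lowest. S100a6 (0.99 ± 0.40, adjusted p = 0.0816), S100a16 (0.83 ± 0.31, adjusted p = 0.0613), S100a11 (-0.64 ± 0.29, adjusted p = 0.114) and S100a1 (-0.62 ± 0.29, adjusted p = 0.124) were not called. DESeq2 called S100a6 (1.08, adjusted p = 0.0266) and S100a16 (0.94, adjusted p = 0.0316) as well. Leaving out TBP clone 1 turned the value of S100a10 from -0.11 to 0.36 (adjusted p = 0.533). S100a14, not tested here, had 66.7, 27.2, 74.4, 21.2, 0.645 and 1.22 CPM in Tumors 1 to 6, all below the 110 CPM of the lowest clone.

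Stromal and epithelial markers were set beside S100a4 and S100a14 in the tumors. Fibroblast markers summed to 25075, 41934, 15738, 59439, 11011 and 20303 CPM in Tumors 1 to 6, and 10 of 10 were higher than in clones, where the sum was at most 22.7 CPM and 5 of 10 were at 0. Epithelium markers summed to 2771 CPM in Tumor 1 and 3692 CPM in Tumor 3 and to 213 to 483 CPM in the other 4. Epcam, an epithelial adhesion gene, had 201 and 363 CPM in Tumors 1 and 3 and at most 13.5 CPM in the others. The tumors with the most epithelial markers were thus those with the most S100a14 and the least S100a4. Among the tumors the orders otherwise differed. Tumor 5 had the lowest fibroblast sum with 1373 CPM of S100a4, while Tumor 1, at a sum of 25075 CPM, had the least S100a4. Tumors 5 and 6 had higher epithelium sums (393 and 483 CPM) than Tumors 2 and 4 (270 and 213 CPM) but less S100a14. Keratinocyte markers (7 genes) summed to 180, 1319, 505, 1729, 5.81 and 46.9 CPM, highest in Tumors 2 and 4, whose S100a14 exceeded that of Tumors 5 and 6. The part of these cell types in the results was not tested.

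**Figure D4:**
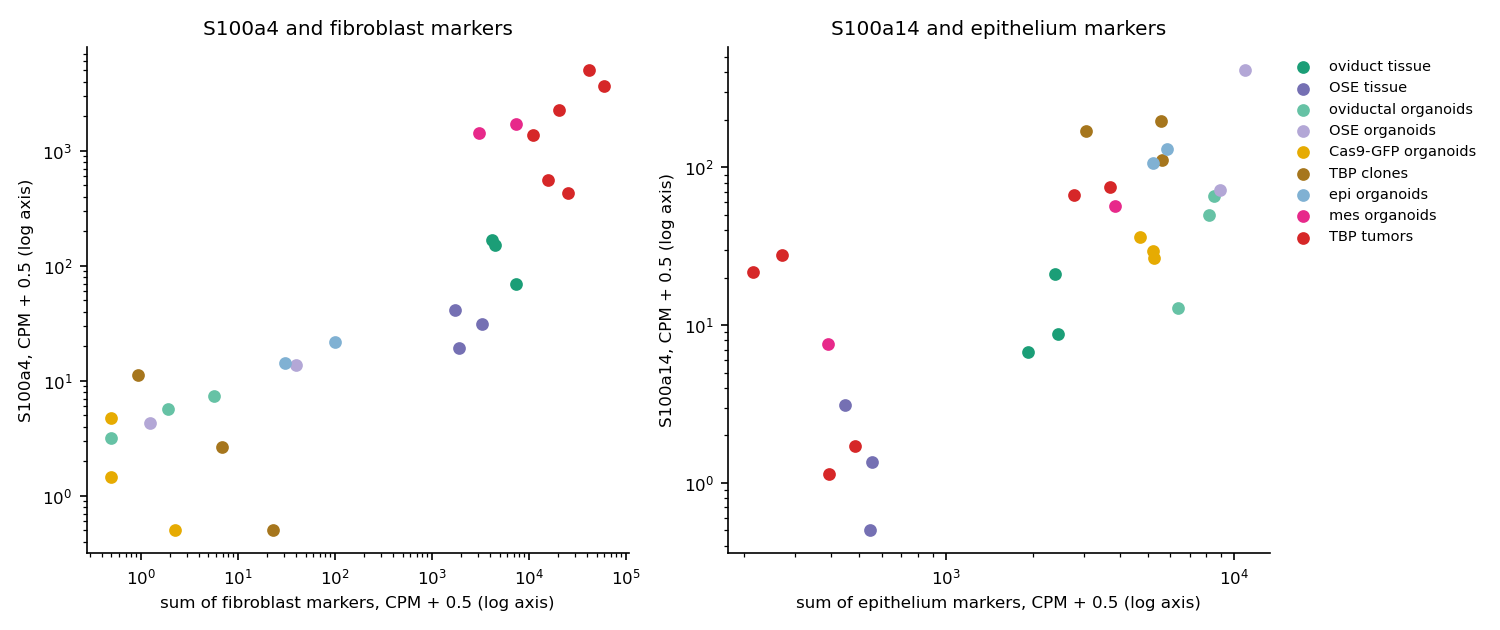
Each point is a library, coloured by group: left, S100a4 (y axis) against the sum of 10 fibroblast markers (x axis); right, S100a14 against the sum of 10 epithelium markers, all in CPM plus 0.5 on log axes. Left, the mes lines and tumors lie at 433 to 5041 CPM of S100a4 with a fibroblast sum of at least 3079 CPM. Oviduct tissue, with a sum of 4196 to 7362 CPM, lies at 68.9 to 169 CPM of S100a4. Right, Tumors 5 and 6 lie near OSE tissue at about 1 CPM of S100a14.

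S100a8 and S100a9, the calprotectin genes, were spread widely among the tumors. S100a8 had 298, 12.3, 600, 208, 1.93 and 8.53 CPM in Tumors 1 to 6, from 6 counts in Tumor 5 to 1782 counts in Tumor 3. S100a9 had 463, 25.4, 780, 224, 0 and 12.2 CPM, in the same order of tumors. In TBP clones, Cas9-GFP organoids and oviductal organoids both genes had 0 counts in every library. Against the clones S100a8 was at least 15.5-fold higher and S100a9 at least 20.7-fold higher, with the floor of 3 counts in each clone library (adjusted p = 0.0309 and 0.0358). Both genes passed the filter on low counts through the tumors alone. S100a4, with 0, 4 and 48 counts in clones 1, 2 and 3, also needed the tumors to pass it. The 3 calls are therefore no support for a difference of the set. S100a8 was not called without TBP clone 1, 2 or 3 (adjusted p = 0.0530, 0.0943 and 0.113), nor S100a9 without TBP clone 1, 2 or 3 (0.0611, 0.105 and 0.123) or Tumor 1 or 4 (0.0502 and 0.0524).

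Against tumor-derived organoids, where 27.4% of 10605 genes were called, 3 of 9 tested members were higher in tumors, 0 were lower and 6 were not called. The median of the 10 fitted members, with S100a4 among them, was 0.49 against 0.022 over all genes and is given as a description. S100a8 (7.95 ± 1.93, adjusted p = 0.0119) was called with any library left out, while S100a9 (7.30 ± 2.00, adjusted p = 0.0203) was not called without T1-mes (adjusted p = 0.0546) or T2-epi (0.0534). The 4 lines had 1, 1, 0 and 4 counts of S100a8 and 0, 4, 1 and 8 counts of S100a9 in T1-mes, T2-epi, T3-mes and T4-epi. Both genes therefore passed the filter on low counts through the tumors alone, and their calls are no support for a difference of the set. S100a16 had 166, 295, 164, 248, 155 and 233 CPM in Tumors 1 to 6 and 83.4, 105, 85.8 and 137 CPM in the lines (0.998 ± 0.25, adjusted p = 0.0140). Every tumor was above every line, and the call held with any library left out. S100a4, for which no test was made here, spanned 13.9 to 1697 CPM in the lines and 433 to 5041 CPM in the tumors.

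Leukocyte markers were measured beside the calprotectin genes. Neutrophil markers (11 of 12 listed genes in the table) summed to 381, 72.8, 363, 438, 25.8 and 45.7 CPM in Tumors 1 to 6, against 10.7 to 68.1 CPM in TBP clones and 36.1 to 149 CPM in tumor-derived organoids. Tumors 1, 3 and 4, highest in the sum, were also highest in S100a8 and S100a9. In Tumor 4 most of the sum was Mmp9, at 330 CPM, while the neutrophil receptor genes Csf3r and Cxcr2 had 2.90 and 4.83 CPM there against 59.5 and 67.2 CPM in Tumor 1 and 20.2 and 36.4 CPM in Tumor 3. Of the granule genes, Elane and Mpo were at 0 in Tumors 1 to 5 while Mmp8 had 10.5, 18.5 and 12.6 CPM in Tumors 1, 3 and 4, against 38.4 to 51.1 CPM in oviduct tissue. Retnlg, a neutrophil gene, was highest in Tumor 3 at 45.1 CPM. Most of the sum in tumor-derived organoids was Cxcl2, a chemokine gene, at 31.8 to 121 CPM. Monocyte and macrophage markers (11 genes) summed to 2728, 4395, 1544, 1597, 2344 and 2779 CPM, and their order differed from that of S100a8: Tumor 2 had the most, Tumor 3 the least. The part of these cells in the result was not tested.

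**Figure D5:**
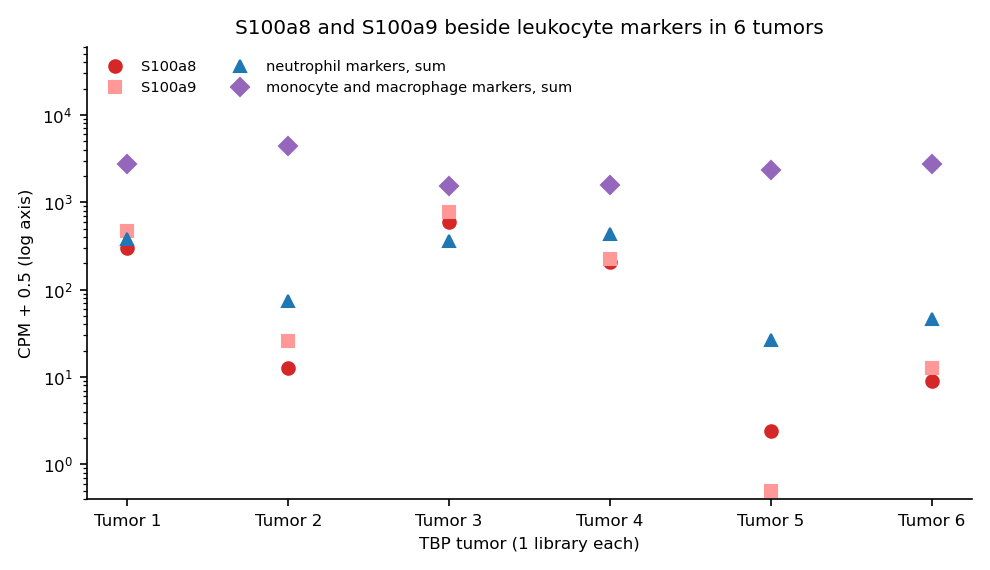
S100a8 and S100a9 beside the summed neutrophil markers and monocyte and macrophage markers in 6 TBP tumors, in CPM plus 0.5 on a log axis. S100a8, S100a9 and neutrophil markers are highest in Tumors 1, 3 and 4, while monocyte and macrophage markers stay between 1544 and 4395 CPM.

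TBP tumors were also set against oviduct tissue, the organ in which the cells originated. All 10 members passed the filter, of which 5 were higher in tumors, 1 was lower and 4 were not called, with 46.1% of 10827 genes called. The median, with S100a8 and S100a9 among the members, was 1.13 against 0.084 over all genes and is given as a description. S100a4 was higher by 4.08 ± 0.88 (adjusted p = 0.00397) and S100a13 by 1.53 ± 0.40 (13.5 to 51.8 CPM in tumors against 11.3 to 13.7 CPM, adjusted p = 0.0102), and both calls held with any library left out. The groups overlapped in S100a13 through Tumor 3 alone. S100a8 and S100a9 were at least 56.0-fold and 74.8-fold higher (adjusted p = 0.0235 for each); with at most 2 counts in an oviduct library, both passed the filter through the tumors alone. The calls of S100a8 and S100a9 are therefore no support for a difference of the set. Neither was called without oviduct tissue 1, 2 or 3 (adjusted p = 0.0932, 0.0798 and 0.0824 for S100a8, 0.102, 0.0797 and 0.0822 for S100a9). S100a16 was higher by 0.88 ± 0.24 (adjusted p = 0.0143), lost without oviduct tissue 1 or 2 (0.0701 and 0.0515). S100a1 was lower by a log2 fold change of -0.61 ± 0.22 (adjusted p = 0.0450), with 154 to 271 CPM in tumors and 261 to 418 CPM in oviduct tissue. Its call was lost without oviduct tissue 1 or 2 (adjusted p = 0.109 and 0.20) or Tumor 1, 2, 3 or 6 (0.0556, 0.0654, 0.0662 and 0.0625). S100a6 (0.47 ± 0.27, adjusted p = 0.182), S100a10 (0.22 ± 0.32, 0.587), S100a11 (0.057 ± 0.26, 0.872) and S100a14 (1.39 ± 1.20, 0.366) were not called. The comparisons with tumors share the same 6 tumor libraries.

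The partners of S100 proteins were followed as a list of 8 receptors and 19 binding partners. In oviduct against OSE tissue, 12 of 19 tested binding partners were higher and 0 were lower, where 51.2% of all genes were called. In OSE organoids against OSE tissue 6 were higher and 1 lower of 19, a share near the 33.1% of all genes. The interaction called 5 of 19, all lower in organoids, with a median of -0.77, where 11.7% of all genes were called. Anxa2, the partner of S100A10, had 764 to 1036 CPM in oviduct tissue and 239 to 338 CPM in OSE tissue (1.62 ± 0.18, adjusted p = 3.08e-06) and 1464 and 1665 CPM in OSE organoids (2.43 ± 0.27 over OSE tissue, adjusted p = 0.00123). Its interaction was -2.01 ± 0.32 (adjusted p = 0.00195), beside -2.30 ± 0.37 for S100a10. Anxa1 (-1.46 ± 0.37, adjusted p = 0.0251), Anxa11 (-1.47 ± 0.41, adjusted p = 0.0378), Ezr, which encodes the membrane-cytoskeleton linker ezrin (-1.62 ± 0.34, adjusted p = 0.00917), and Tlr4 (-3.91 ± 0.72, adjusted p = 0.00495) had interactions of the same sign. Among the receptors, Tlr4 was called in 7 of 9 comparisons, the most of any partner. It had 15.0 to 16.5 CPM in oviduct tissue, at most 1.05 CPM in OSE tissue, and 14.8 and 34.7 CPM in OSE organoids. Its interaction thus includes a group at the floor, and its size is uncertain.

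In tumors against clones, 4 of 7 tested receptors were higher and 1 lower, while 1 of 18 binding partners was higher and 4 were lower, where 31.8% of all genes were called. Tlr4 was higher (1.58 ± 0.51, adjusted p = 0.0353), at 8.69 to 24.3 CPM in tumors against 0, 3.75 and 7.81 CPM in clones. The scavenger receptor gene Cd36 had 1.68 to 24.5 CPM in tumors and 0 counts in the clones (adjusted p = 0.00625). Anxa11 (-2.98 ± 0.34, adjusted p = 2.12e-04), Ezr (-2.13 ± 0.58, adjusted p = 0.0166) and Anxa2 (-0.73 ± 0.25, adjusted p = 0.0413) were lower in tumors. Against oviduct tissue, 4 of 19 binding partners were higher in tumors and 5 lower, and 2 of 6 receptors were higher, where 46.1% of all genes were called. Between oviductal and OSE organoids 0 of 19 binding partners and 0 of 4 receptors were called.

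Of the 7 other S100 genes, S100g and S100b alone reached 10 CPM. S100g, which encodes the calcium buffer calbindin-D9k, had 315, 154 and 124 CPM in oviduct tissue and at most 1.17 CPM in OSE tissue, so that it was at least 77.5-fold higher in the former (adjusted p = 2.53e-08). It fell to 9.44, 19.7 and 17.9 CPM in oviductal organoids (-3.70 ± 0.39, adjusted p = 1.51e-05) and stood at 123, 103 and 170 CPM in Cas9-GFP organoids (3.14 ± 0.31 over C57BL/6 organoids, adjusted p = 3.13e-05). TBP clones 1, 2 and 3 had 216, 101 and 2.90 CPM, so clone 3 was far below the others. The epi lines had 137 and 99.2 CPM, and the mes lines 8.52 and 4.24 CPM. The interaction of S100g was -8.84 ± 1.08 (adjusted p = 3.96e-04), of the same sign as in the 6 called members. With 1, 1 and 0 counts in OSE tissue, S100g was at the floor there. The size of its interaction is therefore uncertain, and its call is no support for a difference of the set. S100b had 45.3, 46.6 and 97.7 CPM in oviduct tissue and at most 7.31 CPM in any other library.

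The genes whose log2 CPM followed each member most closely over the 26 deeper libraries, among 8738 genes with a mean of at least 10 CPM, are given as a description. S100a4 was closest to Gli3 (Pearson's r = 0.951), Fgfr1 (0.942) and Pdgfrl (0.940). Among the genes closest to S100a14 were Cldn4 (0.864) and Pkp3 (0.862), which encode a claudin and a desmosomal plakophilin. S100a8 was closest to S100a9 (0.979), Il1b (0.897) and Lrrc15 (0.878), and S100a9 to S100a8, Il1b (0.887) and Lrrc15 (0.864). S100a11 was closest to Lad1 (0.933), Pxk (0.908) and Pdcd6ip (0.896), and S100a6 to Ccnd1 (0.883), Arl4c (0.858) and Myh9 (0.821), the last a gene of non-muscle myosin. S100a16 was closest to Hoxb2 (0.887), Fkbp2 (0.839) and Pcnp (0.839), and S100a1 to Scp2 (0.821), Zfp703 (0.816) and Nudt18 (0.811). S100a13 (Vamp5, 0.786, Klhl5, 0.781, and Arhgap22, 0.781) and S100a10 (Slc6a8, 0.756, Baiap2, 0.736, and Flt1, 0.725) had the lowest values. The libraries share groups, and depth differs between them.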

How the data were processed

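RNA of 27 libraries was sequenced by CEL-Seq2, which tags transcripts near their 3′ end, on a NextSeq500. With BWA and the GRCm38 transcriptome, the authors made the deposited table of raw read counts for each gene symbol, in the direction of transcription and without collapsing molecular identifiers, so that limits from counting cover counting error only. Per the submitters' processing notes DESeq2 1.18.0 was used there. Of 18306 rows, 1 spike-in row with 1 count was left out. All 33 pairs of replicates differed by more than sampling noise, with a lowest chi-square per gene of 2.53.

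Groups were compared with edgeR 4.0.16 in R 4.3.3 (quasi-likelihood test, TMM, filterByExpr on the libraries compared), with Benjamini-Hochberg adjustment over all genes tested and a threshold of 0.05. The SE is the absolute log2 fold change divided by the square root of F, an approximation. Alternatives were DESeq2 1.42.0, RLE size factors, removal of the low-count filter, the 27 libraries fitted together, omission of single libraries and a replicate block. A fold against a group with at most 3 counts in each library is a bound, computed with 3 counts in each of its libraries. Likeness used log2 CPM with a prior count of 2. The share of all genes whose groups do not overlap was not counted in any comparison.

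The 10 genes, the partner and marker lists and the tests were chosen with earlier results of these data known. Named genes were the 10 members, the other S100 genes, the partners called in most comparisons with Anxa2, and the 3 genes most like each member, of which 1 is not reported here. Epcam, Ovgp1, Pax8, Csf3r, Cxcr2, Elane, Mpo, Mmp8, Mmp9, Retnlg and Cxcl2 were singled out of the marker lists after their values were seen. S100a14 was not tested in tumors against clones or in Cas9-GFP organoids, nor S100a4 in tumors against tumor-derived organoids, because their choice used those groups. Sequences were read from RefSeq windows and positions from GENCODE vM21. The plots used matplotlib 3.10.9 under Python 3.11.15.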

Additional observations from a re-analysis of the deposited data

Results flagged for a closer look

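The oviduct-over-OSE difference of 6 S100 genes differed between organoids and tissues by the interaction test (edgeR, adjusted over 11458 genes). The interaction, organoids minus tissues on the log2 scale, was -1.69 for S100a1, -2.87 for S100a4, -3.66 for S100a6, -2.30 for S100a10, -2.61 for S100a11 and -5.46 for S100a14. S100a14 did not pass the filter on low counts between tissues, nor S100a4 between organoids, so their calls are no support for a difference of the set. Epithelium markers (8 of 10 called lower, median -3.11) had interactions of the same sign. The result rests on 2 OSE organoid libraries that differed from each other. Without OSE organoids 2, which leaves a lone OSE organoid library, S100a4 was -1.61 and S100a6 was -2.37. Among the 6 tumors and among the 4 tumor-derived organoid lines, 0 of 20 sets of member values had a library far from the others by Dixon's test.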

How the results depend on the processing

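The number of S100 members called, 3 in oviductal organoids against oviduct tissue, was 5 with no filter on low counts and 1 in the fit of all 27 libraries. DESeq2 called 1 instead of 0 between oviductal and OSE organoids. For Cas9-GFP organoids the fit of all libraries called 1 instead of 2, and for tumors against TBP clones DESeq2 and the fit of all libraries each called 5 instead of 3. Leaving out 1 library at a time gave 6 to 6 called members for the tissues, 0 to 3 for the wildtype organoids, 2 to 5 for oviductal organoids against tissue, 5 to 7 for OSE organoids against tissue, 1 to 3 for Cas9-GFP organoids, 2 to 6 for tumors against oviduct tissue, 1 to 3 against clones, 2 to 3 against tumor-derived organoids and 4 to 7 for the interaction. The cause was not tested. Over all genes, 8 were called between the wildtype organoids, against 264 by DESeq2, 116 with no filter and 251 in the fit of all libraries. In that last fit 2970 instead of 4495 genes were called between tissues, 1114 instead of 2189 for Cas9-GFP organoids, 5251 instead of 3333 for tumors against clones, 4450 instead of 2911 against tumor-derived organoids and 671 instead of 1338 for the interaction.

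Some small differences turned direction, none of them called in the main test. The log2 fold change of S100a16 in oviductal organoids against tissue, 0.0027, was -0.015 with RLE size factors, -0.013 with DESeq2, -0.0084 in the fit of all libraries and -0.17 to 0.27 with 1 library left out. With 1 library left out, S100a13 spanned -0.096 to 0.13 between tissues, -0.35 to 0.48 in oviductal organoids against tissue and -0.27 to 0.54 in Cas9-GFP organoids. Between oviductal and OSE organoids S100a6 spanned -1.29 to 0.64 and S100a16 -0.97 to 2.64. S100a10 spanned -0.0070 to 0.45 and S100a11 -0.18 to 0.22 in tumors against oviduct tissue, and S100a10 -0.45 to 0.36 in tumors against clones. Of 550 values of members with 1 library left out, 470 kept their direction and side of the threshold, 51 lost and 13 gained a call and 16 turned direction. Under the other settings the numbers were 285, 19, 14 and 6 of 324.

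The replicate numbers did not pair the libraries: deviations from the group means of libraries with the same number correlated at -0.041 to 0.085. With a replicate block, 6, 0, 2, 1 and 2 members were called in the comparisons of tissues, wildtype organoids, oviductal organoids with tissue, OSE organoids with tissue and Cas9-GFP organoids. For OSE organoids with tissue, which share 2 numbers, the block left 539 instead of 3387 genes and 1 instead of 7 members. S100a16 between wildtype organoids turned to 0.62, and in oviductal organoids against tissue S100a13 turned to -0.0067 and S100a16 to -0.052. In TBP clone 1 a gene below 34.1 CPM cannot be told from absent.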
